A study of Mus musculus with 16 samples.

Results

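Genes of myeloid cells and phagocytes were followed in 16 mouse livers. The set held 38 genes, named by symbol and matched by Ensembl identifier to 38 rows among the 55357 genes of the count table, and all 38 passed the filter on low counts that left 14421 genes for testing. The set had been drawn up with measured values of del7 livers against their wild type in view, so its values in that comparison are given as a description and carry no test. Myeloid cells of the liver are resident macrophages, called Kupffer cells, along with monocytes, dendritic cells and neutrophils. They take up particles through receptors for antibody, complement and debris, and kill what they take up with lysosomal enzymes and with superoxide made by the NADPH oxidase. Many of their receptors carry no signalling part of their own and rely on small adaptors with an ITAM, a tyrosine motif that recruits kinases, while others carry an inhibitory counterpart called an ITIM.

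The livers came from 2 mouse lines with a changed telomerase RNA gene, Terc (called mTERC in the labels), each beside a wild-type group of its own, with 4 samples a group. AUG livers had the genotype mTERC CUG/AUG, and AUG_WT livers are labelled WT beside them. In del7 livers (mTERC 29_35del) the gene lacked 7 nucleotides, at positions 29 to 35, and del7_WT livers are labelled WT beside those. No animal was treated, all were fed freely, and the labels used here give neither age, sex nor strain, nor whether a CUG/AUG animal carries 1 allele or a pair. Nothing in them says that the 4 samples of a group came from different animals, and p-values then cover only sample-to-sample spread, which may be technical.

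Between 7714058 and 14629022 reads per library were counted in genes. One library, AUG_WT replicate 1, differed from the remaining 15. The hepatocyte product albumin made up 4.37% of its counts against 6.58% to 11.5% elsewhere. Of its reads, 35.0% were assigned to no gene feature on the counted strand, against 21.8% to 29.4% elsewhere. Hepatocyte markers had a level of -1.05 there on a centred log2 scale and markers of B and plasma cells 4.12. It was the highest of the 16 libraries for 34 of the 38 genes, and edgeR's AUG results below are given with and without it. Values are counts scaled to library size (CPM) on library sizes of the tested genes scaled by TMM. In whole liver RNA, fewer cells of a type and less RNA per cell cannot be told apart.

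In del7 livers 35 of the 38 genes had a log2 fold change above 0 relative to del7_WT, with a median of 0.69, where 50.1% of all tested genes lay above 0 and their median was 0.00014. For 15 of the 38 all 4 del7 libraries lay above all 4 del7_WT libraries, as they did for 2.41% of all tested genes; for 0 they lay below. Because the set was chosen from this comparison, these shares describe it and support nothing. By edgeR's quasi-likelihood test with Benjamini-Hochberg adjustment no gene of the 14421 passed in this comparison (smallest adjusted p = 1), while 170 genes were higher and 107 lower at an unadjusted p under 0.05. These values depended on AUG_WT replicate 1, a library of neither group. Without it edgeR had 469 of 14582 genes higher and 309 lower at that threshold (smallest adjusted p = 0.747). With the 2 groups alone edgeR had 587 of 13841 higher and 324 lower (smallest adjusted p = 0.0987). No gene passed in either fit. On all libraries limma voom called 0 genes and DESeq2 called 1, which is not in the set.

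The mean centred log2 CPM of the 38 genes was 0.38, 0.34, 0.00038 and -0.21 in del7 replicates 1 to 4, against -0.54, -0.66, -0.51 and -0.18 in del7_WT replicates 1 to 4. Replicates 1 and 2 of del7 were the highest of these 8 libraries and del7 replicate 4 lay just below del7_WT replicate 4. The same mean was -0.35, 0.61, 0.18 and -0.42 in AUG replicates 1 to 4 and 2.01, -0.21, -0.14 and -0.30 in AUG_WT replicates 1 to 4. AUG_WT replicates 2 to 4 were above del7_WT replicates 1 to 3 and below del7 replicates 1 to 3, and AUG replicate 2 was above every del7 library. Within a group 1 library was often the highest or lowest for most of the genes. AUG replicate 2 was the highest AUG library for 34 of the 38 and AUG replicate 4 the lowest for 28, del7 replicate 4 was the lowest del7 library for 26, and del7_WT replicate 2 the lowest of its group for 24.

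**Figure D1:**
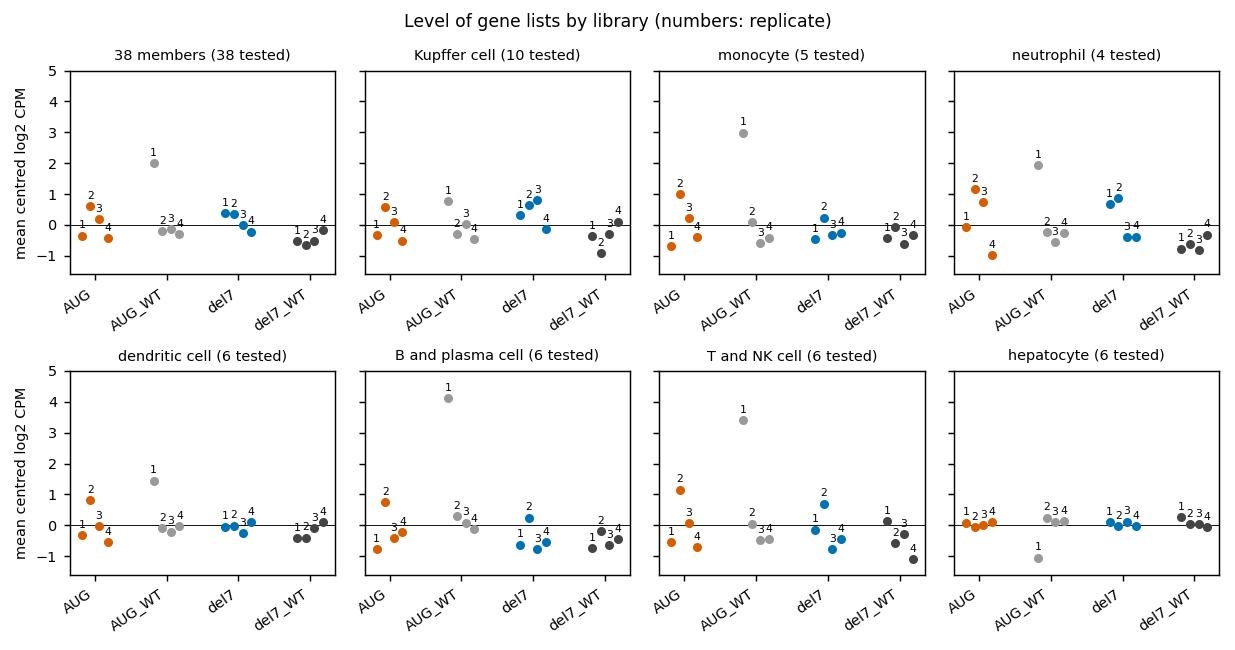
Level of the 38 genes and of 7 marker lists in each library, as the mean over its tested genes of log2 CPM centred per gene across all 16 libraries; points are libraries, numbered by replicate. AUG_WT replicate 1 lies at 2.01 for the 38 genes, and the 4 del7 libraries lie at -0.21 to 0.38 against -0.66 to -0.18 in del7_WT.

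RefSeq promoter windows of build GRCm38.p6 were at hand for 27 of the 38 genes, with 32 windows in all. They were searched on both strands, over the 250 bases before the start, for GAGGAA (reverse complement TTCCTC), the purine-rich core of sites for PU.1, the transcription factor encoded by Spi1 that specifies the myeloid lineage. The motif was found in the windows of 12 of the 27 genes (44.4%), where 25.9% of all 27025 genes in the table had it. The longer form GAGGAAGT, which holds the shorter one, was found in 1 of the 27, C1qc (3.70%), against 2.79% of all genes. Of the 11 genes with a window whose del7 and del7_WT groups did not overlap, 2 had the shorter motif, Cd300a and Laptm5. That share was not above the 25.9% of all genes. Cd300a and Laptm5 are shown with C1qb and Fcgr1, a complement and an Fc receptor gene picked because they hold the motif. The groups of C1qb and Fcgr1 overlapped in del7. Each is given as the 120 bases before the start, 5′ to 3′ on the strand of the gene, with the match in capitals. A match is a run of letters, not a bound site, and a window without one says nothing about the factor.
Cd300a, chr11:114889921-114890040, plus strand: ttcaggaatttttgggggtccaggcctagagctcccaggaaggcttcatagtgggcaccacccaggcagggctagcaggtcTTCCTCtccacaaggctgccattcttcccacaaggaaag
Laptm5, chr4:130913196-130913315, plus strand: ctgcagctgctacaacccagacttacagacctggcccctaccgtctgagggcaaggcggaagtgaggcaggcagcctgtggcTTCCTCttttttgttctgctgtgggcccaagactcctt
C1qb, chr4:136886201-136886320, minus strand: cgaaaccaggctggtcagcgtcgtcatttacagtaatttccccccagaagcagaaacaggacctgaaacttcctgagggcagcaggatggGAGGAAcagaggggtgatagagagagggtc
Fcgr1, chr3:96293970-96294089, minus strand: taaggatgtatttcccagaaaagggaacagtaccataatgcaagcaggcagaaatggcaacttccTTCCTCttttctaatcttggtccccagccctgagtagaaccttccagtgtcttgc
The match lay 39 bases before the start in Cd300a, 38 in Laptm5, 30 in C1qb and 55 in Fcgr1. It read TTCCTC on the strand of the gene in all but C1qb.

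Complement C1q, the protein that binds antibody and dying cells and opens the classical pathway, is built from 3 chains that macrophages make. C1qa (ENSMUSG00000036887.6, chromosome 4) had 44.6, 50.1, 38.9 and 30.98 CPM in del7 replicates 1 to 4, against 26.1, 17.3, 27.3 and 31.7 CPM in del7_WT. C1qb (ENSMUSG00000036905.9, chromosome 4) had 53.97, 60.9, 52.4 and 36.5 CPM in del7, against 31.9, 27.5, 33.2 and 38.8 CPM in del7_WT. C1qc (ENSMUSG00000036896.6, chromosome 4) had 48.3, 52.3, 41.1 and 32.3 CPM in del7, against 29.5, 21.9, 27.1 and 32.7 CPM in del7_WT. In each chain del7 replicate 2 was the highest of these 8 libraries and del7_WT replicate 2 the lowest, and only del7 replicate 4 reached into the wild-type range. The log2 fold changes were 0.69 (SE 0.38), 0.63 (SE 0.41) and 0.65 (SE 0.40), in the order of the chains. In AUG livers C1qa had 33.9, 65.6, 45.6 and 25.9 CPM, against 113, 32.99, 39.7 and 35.1 CPM in AUG_WT. C1qb had 35.4, 73.1, 48.7 and 31.8 CPM in AUG, against 146, 32.8, 41.7 and 34.002 CPM in AUG_WT, and C1qc 32.01, 66.8, 45.8 and 24.3 CPM in AUG, against 118, 31.2, 36.5 and 31.3 CPM in AUG_WT. AUG_WT replicate 1 held the top value of each chain, and AUG replicate 2 the next. Per kilobase of exon the levels were 39.6, 46.8 and 22.5 CPM per kb in del7 for C1qa, C1qb and C1qc, against 24.6, 30.2 and 14.4 in del7_WT, with C1qc the lowest in both.

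Fc receptors bind the constant part of IgG. Fcgr1 (ENSMUSG00000015947.11, chromosome 3), the high-affinity receptor, had 5.77, 5.17, 3.27 and 2.86 CPM in del7 replicates 1 to 4, against 2.17, 1.77, 3.12 and 2.68 CPM in del7_WT. Fcgr3 (ENSMUSG00000059498.14, chromosome 1), a low-affinity activating receptor, had 9.56, 10.1, 7.49 and 5.23 CPM in del7, against 5.81, 3.53, 6.62 and 6.35 CPM in del7_WT. Both receptors were highest in del7 replicates 1 and 2, and both groups overlapped through del7 replicate 4. Their shared adaptor, the Fc receptor gamma chain Fcer1g (ENSMUSG00000058715.12, chromosome 1), had 16.7, 10.5, 8.84 and 6.10 CPM in del7, against 7.08, 5.57, 5.97 and 7.60 CPM in del7_WT. Tyrobp (ENSMUSG00000030579.11, chromosome 7), the ITAM adaptor also called DAP12 that serves Trem2 and related receptors, had 14.2, 13.2, 10.1 and 7.09 CPM in del7, against 5.74, 4.92, 7.27 and 7.51 CPM in del7_WT. The adaptors repeated the pattern of the receptors, with del7 replicate 4 inside the wild-type range. Log2 fold changes were 0.82 (SE 0.34) for Fcgr1, 0.54 (SE 0.40) for Fcgr3, 0.69 (SE 0.44) for Fcer1g and 0.82 (SE 0.41) for Tyrobp. The transcript of Fcgr3 matches that of Fcgr2b, the inhibitory receptor, over 512 nucleotides at 96.3% identity, so reads of either may be lost or misplaced and the values of Fcgr3 are uncertain.

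The same 4 genes had overlapping groups in the AUG line. Fcgr1 had 2.58, 4.31, 3.71 and 3.19 CPM in AUG replicates 1 to 4, against 8.49, 3.60, 2.96 and 3.91 CPM in AUG_WT, and Fcgr3 had 6.22, 7.79, 6.47 and 4.87 CPM in AUG, against 20.7, 5.50, 6.59 and 5.11 CPM in AUG_WT. Fcer1g had 6.13, 14.1, 8.09 and 5.59 CPM in AUG, against 26.6, 6.83, 7.96 and 7.18 CPM in AUG_WT, and Tyrobp 7.20, 18.1, 11.04 and 7.26 CPM in AUG, against 26.03, 7.02, 8.18 and 9.42 CPM in AUG_WT. All 4 were highest in AUG_WT replicate 1, and in AUG they were highest in replicate 2.

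The phagocyte NADPH oxidase makes superoxide from a membrane core of Cybb (gp91phox) and Cyba (p22phox), which the cytosolic subunits Ncf1 (p47phox) and Ncf4 (p40phox) join on activation. Cybb (ENSMUSG00000015340.11, chromosome X) had 45.1, 45.3, 38.7 and 28.7 CPM in del7 replicates 1 to 4, against 25.6, 16.9, 23.8 and 21.8 CPM in del7_WT, and Cyba (ENSMUSG00000006519.12, chromosome 8) had 9.80, 10.3, 9.22 and 5.97 CPM in del7, against 5.25, 3.90, 4.80 and 5.01 CPM in del7_WT. Ncf1 (ENSMUSG00000015950.14, chromosome 5) had 6.88, 7.67, 9.51 and 5.85 CPM in del7, against 5.67, 5.20, 4.54 and 5.37 CPM in del7_WT. In these 3 subunits every del7 library lay above every del7_WT library, and del7 replicate 4 was again the lowest of its group. Ncf4 (ENSMUSG00000071715.13, chromosome 15) had 3.79, 3.47, 3.55 and 2.61 CPM in del7, against 1.75, 1.95, 1.95 and 2.68 CPM in del7_WT, where del7 replicate 4 fell just below del7_WT replicate 4. Log2 fold changes were 0.84 (SE 0.65) for Cybb, 0.90 (SE 0.57) for Cyba, 0.52 (SE 0.75) for Ncf1 and 0.69 (SE 0.66) for Ncf4.

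Cybb had 27.3, 67.02, 41.2 and 25.5 CPM in AUG replicates 1 to 4, against 307, 27.2, 33.1 and 28.7 CPM in AUG_WT. Cyba had 5.33, 10.1, 7.80 and 5.67 CPM in AUG, against 47.6, 6.45, 5.80 and 6.70 CPM in AUG_WT. Ncf1 had 6.49, 9.99, 8.47 and 5.35 CPM in AUG, against 85.9, 5.59, 5.68 and 5.19 CPM in AUG_WT, and Ncf4 2.76, 5.79, 4.28 and 2.71 CPM in AUG, against 25.7, 3.22, 2.96 and 1.92 CPM in AUG_WT. AUG_WT replicate 1 was 10.3 times the mean of the other 3 AUG_WT libraries for Cybb, 7.54 times for Cyba, 15.7 times for Ncf1 and 9.54 times for Ncf4, while the C1q chains were at 3.13 to 4.04 times and Fcgr1 at 2.43 times. AUG_WT replicates 2 to 4 lay inside the AUG range for Cybb and Cyba, and inside or below it for Ncf1 and Ncf4.

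**Figure D2:**
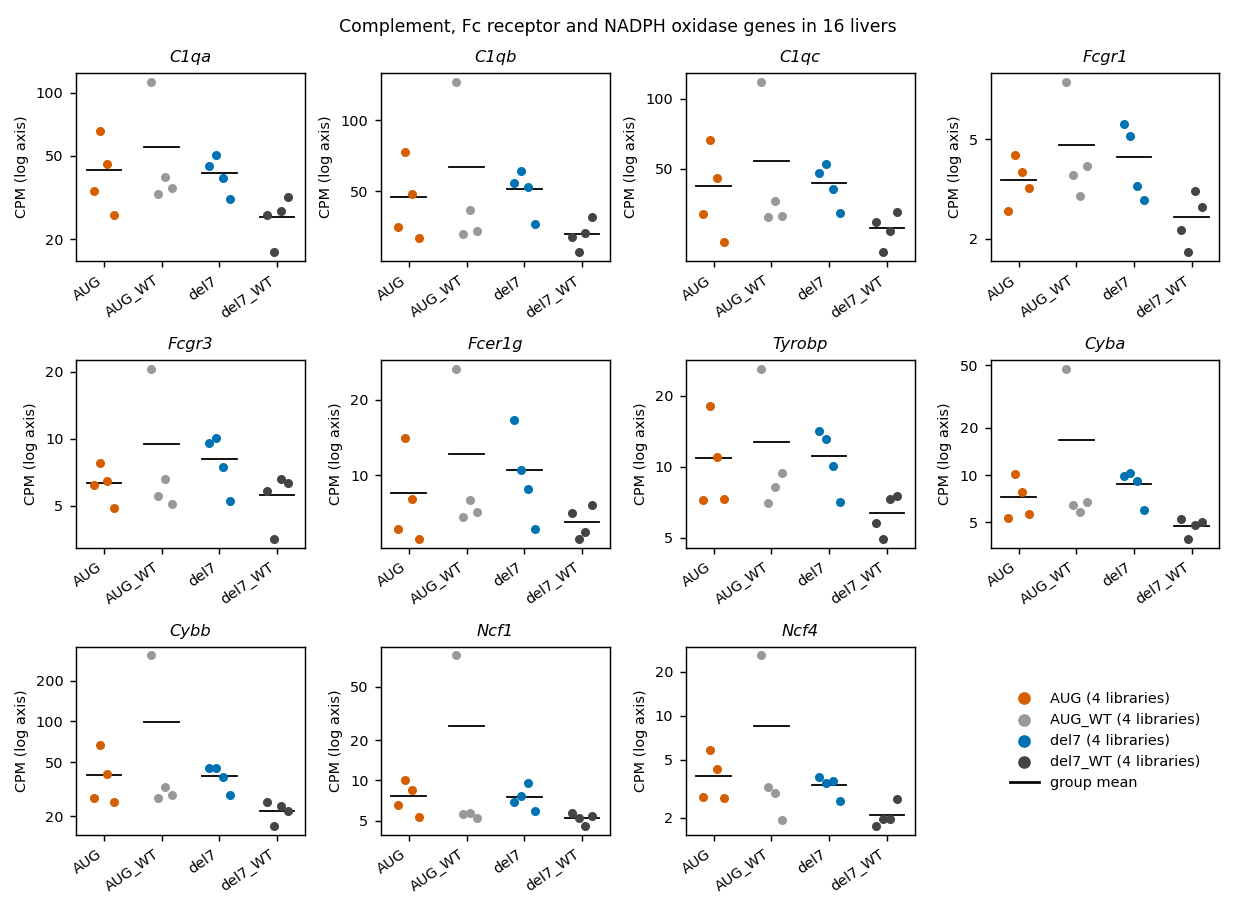
CPM on a log axis for the 11 complement, Fc receptor and adaptor, and NADPH oxidase genes; points are libraries and lines group means, 4 libraries a group. AUG_WT replicate 1 is the highest point in every panel, at 307 CPM for Cybb, and del7 libraries lie wholly above del7_WT for Cyba, Cybb and Ncf1.

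Among receptors that raise or restrain the myeloid response, 4 of 5 had groups that did not overlap in del7, as 2.41% of all genes did with del7 higher. Cd300a (ENSMUSG00000034652.13, chromosome 11), an inhibitory receptor with ITIMs, had 9.56, 8.39, 6.05 and 8.09 CPM in del7 replicates 1 to 4, against 3.64, 3.16, 4.02 and 5.72 CPM in del7_WT, a log2 fold change of 0.96 (SE 0.25). Nfam1 (ENSMUSG00000058099.17, chromosome 15), an activating receptor with an ITAM, had 15.96, 14.04, 15.9 and 12.1 CPM in del7, against 7.22, 6.13, 7.27 and 6.89 CPM in del7_WT, a log2 fold change of 1.08 (SE 0.31). For Nfam1 the gap was wide, since the lowest del7 library was above the highest del7_WT library by more than the spread of the del7_WT libraries. Sirpa (ENSMUSG00000037902.19, chromosome 2), the inhibitory receptor for the "don't eat me" signal CD47, had 49.7, 46.8, 46.1 and 35.96 CPM in del7, against 27.4, 21.5, 25.96 and 34.3 CPM in del7_WT, a log2 fold change of 0.71 (SE 0.50). Lilrb4a (ENSMUSG00000112148.2, chromosome 10), an inhibitory receptor of the leukocyte immunoglobulin-like family, had 8.93, 7.91, 6.92 and 6.72 CPM in del7, against 4.90, 4.27, 4.80 and 5.19 CPM in del7_WT, a log2 fold change of 0.67 (SE 0.48). The transcript of Lilrb4a matches that of Lilr4b at 96.0% identity over 1388 nucleotides, and that of the overlapping Gm49339 in full over 1381, so its values are uncertain. Trem2 (ENSMUSG00000023992.15, chromosome 17), a lipid receptor of macrophages, was low in both groups, at 0.0961 to 1.58 CPM in del7 and 0.560 to 1.67 CPM in del7_WT, with a log2 fold change of -0.081 (SE 0.58).

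In the AUG line Cd300a had 4.89, 8.42, 5.23 and 4.87 CPM in AUG, against 9.33, 6.07, 6.02 and 5.11 CPM in AUG_WT, and Nfam1 9.42, 18.7, 14.8 and 9.34 CPM in AUG, against 26.4, 9.67, 11.1 and 9.74 CPM in AUG_WT. Sirpa had 27.4, 63.4, 37.8 and 27.4 CPM in AUG, against 163, 26.6, 30.2 and 26.02 CPM in AUG_WT, and Lilrb4a 4.36, 10.3, 7.61 and 6.31 CPM in AUG, against 23.6, 3.32, 6.48 and 3.91 CPM in AUG_WT. AUG_WT replicate 1 was 1.63 times the mean of the other 3 AUG_WT libraries for Cd300a, close to AUG replicate 2, but 5.92 times for Sirpa and 5.16 times for Lilrb4a.

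Of 5 adhesion and chemokine receptors, 3 had a fold change above 0 in del7, with a median of 0.019. Adgre4 (ENSMUSG00000032915.7, chromosome 17), an adhesion G protein-coupled receptor of macrophages, had 19.8, 15.9, 17.2 and 10.9 CPM in del7 replicates 1 to 4, against 7.71, 5.67, 7.53 and 9.03 CPM in del7_WT, a log2 fold change of 1.10 (SE 0.27). Itgax (ENSMUSG00000030789.10, chromosome 7), the integrin chain CD11c of dendritic cells and some macrophages, had 15.2, 5.41, 3.84 and 3.61 CPM in del7, against 2.24, 2.79, 2.21 and 3.22 CPM in del7_WT, a log2 fold change of 1.43 (SE 0.93). Neither pair of groups overlapped, and del7 replicate 1 was far above the other del7 libraries for Itgax, whose log2 fold change was 0.71 without it. Ccr2, the chemokine receptor that draws in monocytes, had 2.61 to 5.89 CPM in del7 and 2.73 to 5.37 CPM in del7_WT, a log2 fold change of 0.019 (SE 0.50). Cx3cr1, the fractalkine receptor, had 1.83 to 3.86 CPM in del7 and 1.19 to 5.95 CPM in del7_WT, a log2 fold change of -0.45 (SE 0.50). Itgam, the integrin chain CD11b, was low, at 0.124 to 1.34 CPM in del7 and 0.420 to 1.61 CPM in del7_WT, a log2 fold change of -0.33 (SE 0.70). Its transcript matches that of Gm49368, which overlaps it on the same strand, at 99.9% identity over 3454 nucleotides, so reads may be lost from its count and its values are uncertain. Cx3cr1, which overlaps Gorasp1, Csrnp1 and Xirp1 on its strand, is uncertain too. Trem2, Cx3cr1 and Itgam were the 3 genes of the set with a fold change below 0 in del7. In AUG livers Adgre4 had 10.3, 18.7, 15.3 and 9.66 CPM, against 14.1, 7.87, 10.7 and 6.31 CPM in AUG_WT, and Itgax 2.67, 6.42, 3.81 and 2.71 CPM in AUG, against 65.9, 3.22, 2.61 and 2.55 CPM in AUG_WT.

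Receptors for microbes and debris had fold changes above 0 in 5 of 5 genes in del7, with a median of 0.42. Msr1 (ENSMUSG00000025044.17, chromosome 8), scavenger receptor A, had 26.6, 30.4, 21.04 and 22.3 CPM in del7 replicates 1 to 4, against 20.5, 18.3, 18.3 and 17.6 CPM in del7_WT, a log2 fold change of 0.42 (SE 0.29) with groups that did not overlap. Mrc1, the mannose receptor that sinusoidal endothelium also makes, averaged 111 ± 6.10 CPM in del7 livers and 101 ± 12.9 CPM in del7_WT livers (mean ± SD of 4 libraries), a log2 fold change of 0.14 (SE 0.12). The lipopolysaccharide receptor Tlr4 had 0.37 (SE 0.36), its co-receptor Cd14 had 0.50 (SE 0.39), and Ly86, the partner of Cd180, had 0.50 (SE 0.62), with overlapping groups in all 3. Mrc1 was the 1 gene of the set that AUG_WT replicate 1 had below the mean of its group mates in TMM-scaled CPM, at 0.767 times. That order rested on the scaling. As a plain share of counts it was above them, with 1180 of 10569373 counts. AUG_WT replicates 2 to 4 had 1082 of 12055750, 1003 of 9251579 and 1343 of 13062119. Msr1 had 26.2, 42.6, 32.5 and 20.99 CPM in AUG, against 56.3, 27.9, 28.2 and 17.2 CPM in AUG_WT.

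Csf1r (ENSMUSG00000024621.17, chromosome 18), the receptor for the growth factor on which macrophages depend, had 104, 110.0, 110.1 and 84.1 CPM in del7 replicates 1 to 4, against 67.9, 46.7, 58.5 and 73.1 CPM in del7_WT, a log2 fold change of 0.73 (SE 0.30). Every del7 library was above every del7_WT library. Its level in AUG was 72.8, 134, 96.1 and 69.8 CPM, against 194, 71.5, 79.7 and 70.9 CPM in AUG_WT. Spi1, which encodes PU.1, had 3.73 to 10.8 CPM in del7 and 3.24 to 5.54 CPM in del7_WT, a log2 fold change of 0.78 (SE 0.47) with groups that overlapped. Irf8, a transcription factor of monocytes, dendritic cells and B cells, had 10.5 to 14.7 CPM in del7 and 9.60 to 11.1 CPM in del7_WT, a log2 fold change of 0.27 (SE 0.89), also with overlap. It shares its strand with the overlapping gene Gm20388, and its values are uncertain.

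All 6 genes of lysosomal and effector proteins had fold changes above 0 in del7, and in 3 of them the groups did not overlap, beside the same 2.41% of all genes. Lyz2 (ENSMUSG00000069516.9, chromosome 10), the lysozyme of macrophages and neutrophils, had 74.2, 86.05, 117 and 68.1 CPM in del7 replicates 1 to 4, against 47.7, 43.02, 43.4 and 64.3 CPM in del7_WT, a log2 fold change of 0.80 (SE 0.50). It was the most abundant gene of the set per kilobase of exon, at 65.6 CPM per kb in del7 and 37.7 in del7_WT. Its transcript matches that of Lyz1 at 95.8% identity over 1264 nucleotides, but Lyz1 had 94 counts over all 16 libraries and Lyz2 16307. Laptm5 (ENSMUSG00000028581.18, chromosome 4), a lysosomal membrane protein of blood cells, had 37.2, 38.7, 26.8 and 21.5 CPM in del7, against 16.7, 14.6, 17.8 and 20.4 CPM in del7_WT, a log2 fold change of 0.84 (SE 0.65). Pld4 (ENSMUSG00000052160.8, chromosome 12), a lysosomal exonuclease, had 18.4, 11.6, 8.93 and 9.70 CPM in del7, against 8.48, 4.83, 6.23 and 7.51 CPM in del7_WT, a log2 fold change of 0.85 (SE 0.75). The remaining 3 overlapped. Cathepsin S (Ctss), a protease of antigen presentation, had 0.57 (SE 0.57), the lysosomal glycoprotein Cd68 had 0.73 (SE 0.39), and Mpeg1, which encodes the pore-former perforin-2, had 0.60 (SE 0.49). In the AUG line Lyz2 had 60.5, 98.3, 108 and 49.9 CPM in AUG, against 352, 55.3, 67.5 and 62.2 CPM in AUG_WT. Laptm5 had 20.004, 46.6, 29.4 and 14.9 CPM in AUG, against 221, 23.5, 22.7 and 22.03 CPM in AUG_WT, and Pld4 5.42, 18.1, 10.8 and 8.38 CPM in AUG, against 111, 10.6, 8.75 and 5.91 CPM in AUG_WT.

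Ms4a7 (ENSMUSG00000024672.12, chromosome 19), a membrane protein of macrophages, had the largest fold change of the 38 in del7, at 1.69 (SE 0.68) on the log2 scale. It had 2.37, 1.86, 3.65 and 1.87 CPM in del7 replicates 1 to 4, against 0.560, 0.743, 0.389 and 1.25 CPM in del7_WT, levels at which a library holds few reads. In the AUG line it had 1.42, 2.52, 1.998 and 1.20 CPM in AUG, against 9.05, 0.853, 1.02 and 1.52 CPM in AUG_WT. Aif1, which encodes the actin-binding protein IBA1 of macrophages, had a log2 fold change of 0.71 (SE 0.49) in del7, and Cd52, a surface glycoprotein of lymphocytes and monocytes, 0.77 (SE 1.00). Both overlapped between del7 and del7_WT.

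**Figure D3:**
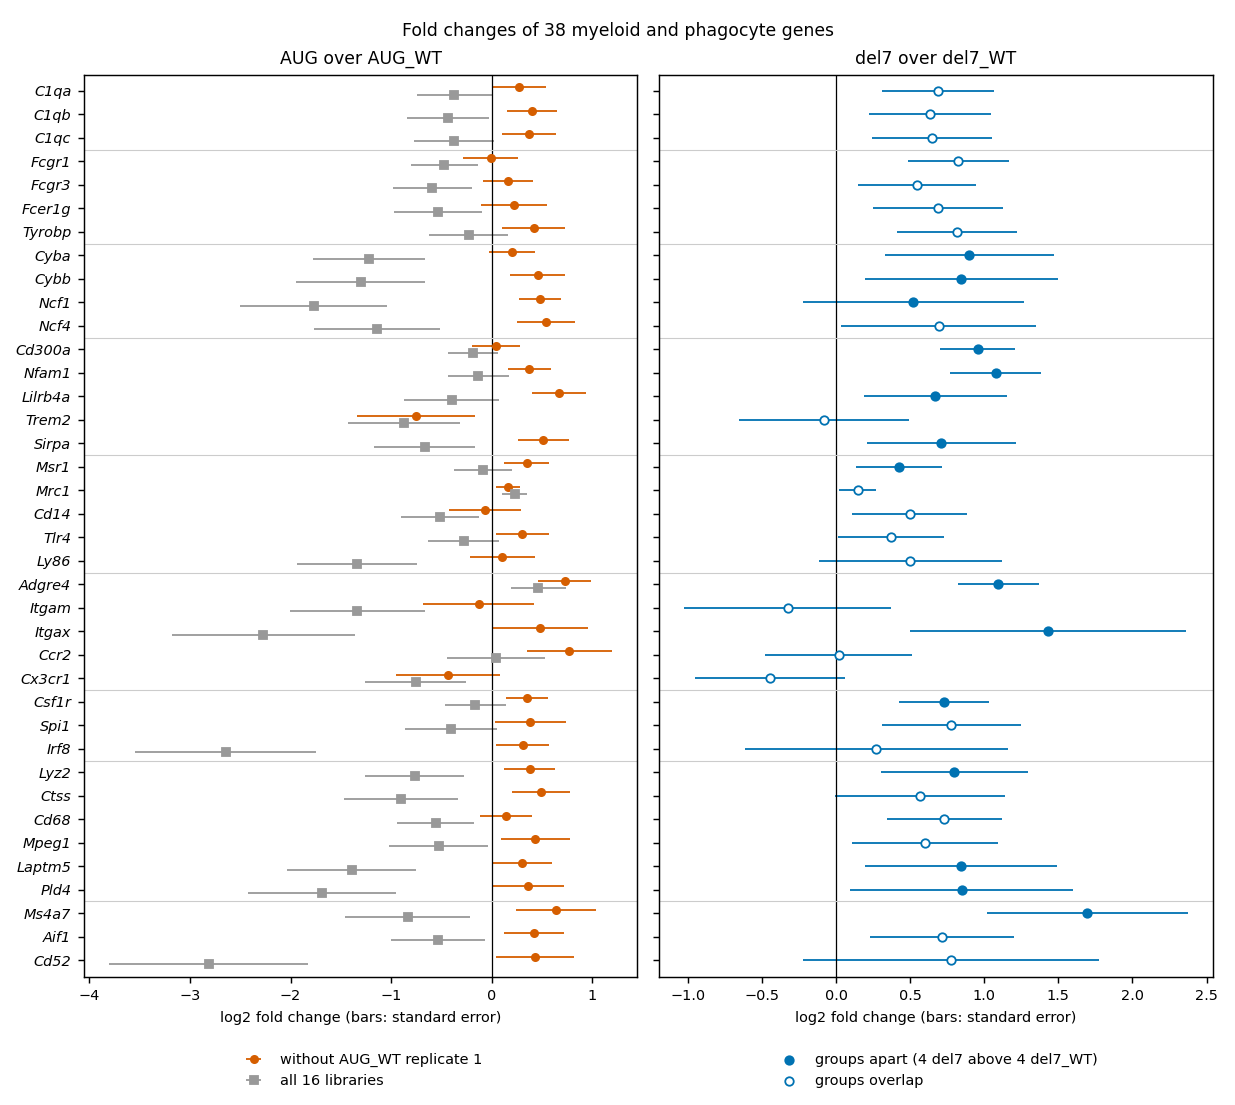
Log2 fold changes with standard errors for the 38 genes, grouped by role, for AUG over AUG_WT with all 16 libraries (squares) and without AUG_WT replicate 1 (circles), and for del7 over del7_WT (filled where the groups did not overlap). In del7 35 of 38 lie above 0; in AUG 35 of 38 lie below 0 with all libraries and 33 of 38 above 0 without AUG_WT replicate 1.

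The AUG comparison shares no library with the one from which the set was chosen, and the genes were tested there. The set was still drawn up with earlier results of these data known, and the spread was estimated from all 16 libraries, so the test is not fully independent of the choice. None of the 38 passed by edgeR's quasi-likelihood test with Benjamini-Hochberg adjustment over 14421 genes (smallest adjusted p = 0.561), where 3 genes (0.0208%) were called higher and 1 (0.00693%) lower in all. At an unadjusted p under 0.05 by edgeR 8 of the 38 were lower and 0 higher, where 7.37% of all genes were lower and 1.44% higher, while DESeq2 and limma voom had 0 in either direction and called 0 of the 38. With all libraries 35 of the 38 had a log2 fold change below 0, with a median of -0.54, and 3 above 0, where 56.2% of all tested genes lay below 0, 43.8% above, and their median was -0.038. The groups did not overlap in 0 of the 38, against 0.853% of all genes with AUG higher and 1.20% with AUG lower.

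Without AUG_WT replicate 1 the direction turned. Then 33 of the 38 had a fold change above 0 in AUG and the median was 0.37, beside a median of 0.013 over all 14582 genes tested. Cybb was at -1.30 with all libraries and 0.46 without that one, Ncf1 at -1.77 and 0.48, C1qb at -0.43 and 0.40, and Tyrobp at -0.23 and 0.42. Fcgr1, at -0.47 with all libraries, was at -0.0100. Adgre4 was the exception that lay above 0 either way, at 0.47 (SE 0.27) and 0.73, along with Mrc1 at 0.23 (SE 0.12) and 0.16 and Ccr2 at 0.042 (SE 0.49) and 0.77. None of the 38 passed by edgeR without that library either (smallest adjusted p = 0.791), where 0.0206% of all genes were called higher and 0.00686% lower, with 3 of the 38 higher and 0 lower at an unadjusted p under 0.05, where 2.58% of all genes were higher and 3.34% lower. Their groups did not overlap in 0 of the 38, against 2.91% of all genes with AUG higher and 2.61% with AUG lower. AUG replicate 2 was the highest of the other 15 libraries for 22 of the 38 genes, and with it left out as well, a choice made after seeing the data, 22 genes were above 0 and 16 below, with a median of 0.060.

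In TMM-scaled CPM, AUG_WT replicate 1 was above the mean of its 3 group mates in 37 of the 38 genes, by a median of 3.94 times, but by unequal amounts. Cd52 was at 34.6 times, Irf8 at 27.4, Itgax at 23.5, Ncf1 at 15.7, Pld4 at 13.2 and Cybb at 10.3, the 6 genes over 10 times. Irf8 had 291 CPM there and 10.6 CPM on average in the other 3. The lowest ratios after Mrc1 were 1.30 for Trem2, 1.63 for Cd300a, 1.70 for Adgre4 and 1.92 for Cx3cr1, and Csf1r was at 2.63 times. In that library the summed CPM was 729 for 6 B and plasma cell markers against 56.7 to 331 in the other AUG_WT libraries, 94.7 for 10 T and NK cell markers against 5.23 to 7.68, and 362 for 6 proliferation markers against 6.78 to 24.7. Other myeloid markers were also high there: the sum was 132 CPM for 6 monocyte markers against 8.70 to 13.7, 40.2 for 10 neutrophil markers against 4.89 to 7.11, and 37.95 for 7 dendritic cell markers against 19.7 to 22.05. Summed Kupffer cell markers were at 704 CPM, against 518 to 743, while their centred log2 level was 0.77, above the -0.46 to 0.016 of the other 3. The place of that sum inside the range rested on the TMM scaling, as for Mrc1. As a plain share of counts it was the highest of the AUG_WT libraries. The part of these cells in the result was not tested.

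**Figure D4:**
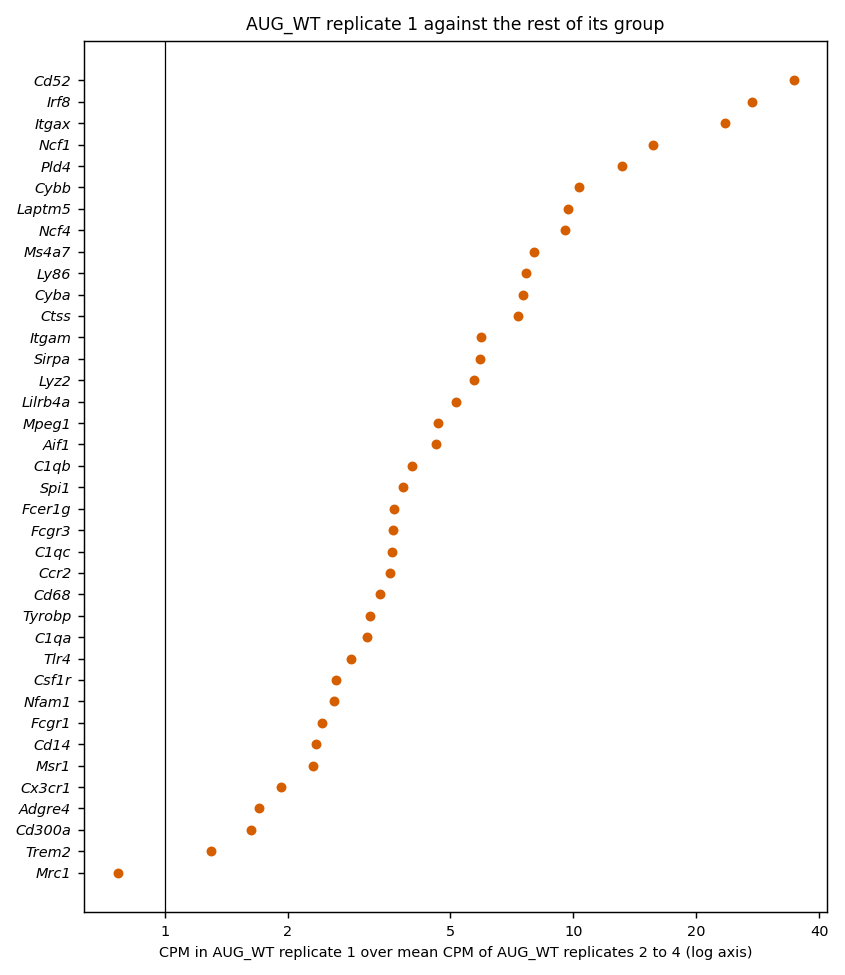
CPM of each of the 38 genes in AUG_WT replicate 1 divided by the mean of AUG_WT replicates 2 to 4, on a log axis, in order of the ratio. Ratios run from 0.767 for Mrc1 to 34.6 for Cd52, and 6 genes lie above 10.

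Genes that work with the set were followed as 47 partners, of which 45 were tested. The partner list was fixed with earlier results of these data known, so its counts and shares are a description and no separate support for the set. In del7 none passed by edgeR (0 of 45, smallest adjusted p = 1), and 0 by DESeq2 and by limma voom. At an unadjusted p under 0.05 by edgeR 4 were higher and 0 lower, beside 1.18% of all genes higher. Of the 45, 34 had a fold change above 0, beside 50.1% of all genes. In 11 all del7 libraries lay above all del7_WT libraries, where 2.41% of all genes did so. Without AUG_WT replicate 1, 14 were higher at an unadjusted p under 0.05, beside 3.22% of all genes, and 0 passed (smallest edgeR adjusted p = 0.754). Of the 11 partners without overlap, 7 were among the 10 tested genes of ITAM and ITIM signalling. Fgr, a SRC-family kinase that phosphorylates ITAMs, had 11.5, 8.07, 9.03 and 4.48 CPM in del7 replicates 1 to 4, against 2.59, 3.34, 1.82 and 3.67 CPM in del7_WT, a log2 fold change of 1.53 (SE 0.64). Syk, the kinase that docks on phosphorylated ITAMs, averaged 22.3 ± 6.12 CPM in del7 livers and 13.03 ± 1.67 CPM in del7_WT livers (mean ± SD of 4 libraries), a log2 fold change of 0.78 (SE 0.75). Vav1, an exchange factor downstream of it, had 0.67 (SE 0.67). Fcgr4, an activating receptor for IgG that uses Fcer1g, had 21.3, 6.94, 4.71 and 3.98 CPM in del7, against 2.87, 1.86, 3.12 and 1.79 CPM in del7_WT, a log2 fold change of 1.95 (SE 0.59). The receptor for the complement fragment C3a, C3ar1, had 0.70 (SE 0.24), the integrin partner Itgb2 0.78 (SE 0.61), and the oxidase GTPase Rac2 0.87 (SE 0.78).

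Other partners had fold changes nearer 0, among them these, chosen after their values were seen. The proteases of the C1 complex, C1ra and C1s1, had -0.026 (SE 0.26) and -0.047 (SE 0.32) in del7, C3 had 0.070 (SE 0.20) and C4b 0.23 (SE 0.29). Cd47, the ligand of Sirpa, had 0.076 (SE 0.12), and the ligands of Csf1r, Csf1 and Il34, had 0.10 (SE 0.28) and 0.21 (SE 0.32). The 10 myeloid transcription factors beside the set had a median of -0.0056, with 5 above and 5 below 0. In AUG 0 of 45 partners passed by edgeR (smallest adjusted p = 0.561), nor by DESeq2 or limma voom. At an unadjusted p under 0.05 by edgeR 0 were higher and 10 lower, beside 1.44% and 7.37% of all genes. With all libraries 30 lay below 0, beside 56.2% of all genes. Their median was -0.26, beside -0.038 over all genes. Without AUG_WT replicate 1 40 of the 45 were above 0, with a median of 0.16, beside a median of 0.013 over all genes. In that fit 0 passed by edgeR (smallest adjusted p = 0.791). At an unadjusted p under 0.05 by edgeR 2 were higher and 0 lower, beside 2.58% and 3.34% of all genes. DESeq2 and limma voom were run on all libraries.

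Marker lists, none of which holds a gene of the set, were compared between del7 and del7_WT beside it. Of 10 Kupffer cell markers, 9 had a fold change above 0, with a median of 0.84, and their summed CPM was 534 to 748 in del7 and 410.5 to 554 in del7_WT. Of 10 neutrophil markers 4 were tested, all with a fold change above 0 and a median of 1.28, and in 1 of the 4 the groups did not overlap. The summed CPM of the 10 was 7.01 to 16.1 in del7 and 3.24 to 5.99 in del7_WT, and Ly6g was at 0 counts in both groups. Their centred log2 level overlapped, at 0.67, 0.87, -0.39 and -0.38 in del7 replicates 1 to 4, against -0.81 to -0.31 in del7_WT. Of 6 monocyte markers 5 were tested, 4 of them above 0 with a median of 0.38, and the sum was 9.80 to 14.9 CPM in del7 and 8.48 to 12.3 CPM in del7_WT. Of 7 dendritic cell markers 6 were tested, 5 above 0 with a median of 0.22, and the sum was 22.4 to 26.8 CPM in del7 and 18.6 to 24.1 CPM in del7_WT. No monocyte, dendritic or Kupffer cell marker was at 0 counts in either group. Of 6 hepatocyte markers 5 were below 0, with a median of -0.036, and of 7 sinusoidal endothelial markers 5 were above 0, with a median of 0.10. Of 8 erythroid markers 6 were tested, all above 0 with a median of 0.92, and the sum was 149.6 to 986 CPM in del7 and 128 to 403 CPM in del7_WT. Medians were 0.35 for B and plasma cell markers, 0.35 for T and NK cell markers, -0.070 for stellate cell markers, 0.081 for cholangiocyte markers and 0.082 for proliferation markers. The part of these cell types in the values of the 38 genes was not tested.

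The spread shared by all 16 libraries set the standard errors above. The median standard error of the 38 log2 fold changes in del7 was 0.490 with all libraries, 0.257 without AUG_WT replicate 1, which belongs to neither group, and 0.215 with the 2 groups alone, where 37 of the 38 were tested, while the median fold change was 0.69, 0.68 and 0.70 in these fits. The count of 15 genes with groups apart became 25 without del7 replicate 4, where the share of all genes also rose, to 4.19%.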

How the data were processed

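Per the labels' protocols, RNA was taken from 10 mg of frozen liver, treated with DNase, depleted of ribosomal RNA and made into libraries that mark the strand. The submitters' processing notes name cutadapt 2.10, STAR 2.7.9a and the build GRCm39, and no source used here gives the annotation release. The authors deposited raw read counts per gene, as 1 table for the series and as per-sample tables with unstranded, forward and reverse columns; the series table equalled the reverse column in 16 of 16 samples. Unmapped (2.82% to 3.93%), multimapping (9.23% to 15.0%) and unassigned reads (21.8% to 35.0%) stayed out of library sizes. A list of gene names gave symbols by Ensembl identifier for 52081 of 55357 genes. GENCODE M21 (GRCm38) gave chromosomes and exon lengths, also by Ensembl identifier. As its build differs, no gene coordinates are printed. Near-identical transcripts (blastn 2.17.0, at least 95% identity over 200 nucleotides) mark uncertain genes.

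The main test was edgeR 4.0.16 (R 4.3.3), quasi-likelihood and two-sided, on all 16 libraries together with 1 mean per group, 12 residual degrees of freedom, TMM, filterByExpr at a minimum count of 10 and Benjamini-Hochberg adjustment over 14421 genes at 0.05. A standard error is the fold change divided by the square root of F; its median over all genes was 0.22. Centred log2 CPM used a prior count of 2. Code was tested on simulated counts. Alternatives were DESeq2 1.42.0, limma voom (limma 3.58.1), RLE factors, other filters, the unstranded column, 2 groups alone, left-out libraries and a replicate block.

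The members and all lists were chosen with earlier results of these data known. Values in every library are given for the 11 complement, Fc receptor and oxidase genes and for members whose groups did not overlap in del7 or AUG; up to 8 partners without overlap are named by p, of which 1 is not reported here. Promoter windows carry coordinates of their own build, and for 29 of 32 the last 40 bases, beyond the start, were found in a transcript of the gene.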

Additional observations from a re-analysis of the deposited data

Results flagged for a closer look

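Of 156 groups of 4 libraries checked, the CPM of each of 38 genes and the level of the whole set in each of the 4 groups, 32 had a highest or lowest library whose gap to the next, divided by the range of the group, was above Dixon's 95% critical value for 4 samples. Chance flags about 1 in 20 separate groups, but these groups share the same libraries and the level is made from the same genes. The 32 are therefore not separate events to hold against that rate. In 30 of the 32 the library was AUG_WT replicate 1, above its group mates: the level of the whole set, at 0.932, and 29 genes. Of complement, C1qa was at 0.916, C1qb at 0.921 and C1qc at 0.939. Of Fc receptors and adaptors, Fcgr3 was at 0.905, Fcer1g at 0.943 and Tyrobp at 0.874. Of the oxidase, Cyba was at 0.978, Cybb at 0.979, Ncf1 at 0.994 and Ncf4 at 0.945. Of the receptors, Nfam1 was at 0.912, Lilrb4a at 0.844, Sirpa at 0.969, Ly86 at 0.926, Itgam at 0.915, Itgax at 0.989, Ccr2 at 0.846 and Csf1r at 0.929. Of the rest, Spi1 was at 0.913, Irf8 at 0.987, Lyz2 at 0.959, Ctss at 0.985, Cd68 at 0.948, Mpeg1 at 0.847, Laptm5 at 0.993, Pld4 at 0.955, Ms4a7 at 0.919, Aif1 at 0.898 and Cd52 at 0.988. The other 2 were Itgax in del7, where replicate 1 was high (0.844), and Cd300a in AUG, where replicate 2 was high (0.897).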

How the results depend on the processing

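The median log2 fold change of the set in del7 kept its direction under every alternative, at 0.56 to 0.81 with 1 library left out. The count of genes with groups apart there ran from 15 to 25 with 1 library left out, the highest without del7 replicate 4; with 1 library of these groups left out, 3.20% to 4.19% of all genes were apart with del7 higher, also most without del7 replicate 4. DESeq2 called 1 gene over all in del7, where edgeR called 0, and 9 in AUG, where edgeR called 4. No gene of the set in AUG, and no partner in either comparison, was called under any alternative run. In AUG the median of the set ran from -0.82 to 0.37 with 1 library left out and was above 0 without AUG_WT replicate 1 alone; with AUG replicate 2 left out too, it was 0.060. Groups were apart in 0 to 1 of the 38 genes in AUG with 1 library left out.

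Of the 11 complement, Fc receptor and oxidase genes, 10 turned direction in AUG when AUG_WT replicate 1 was left out, and none when another single library was. Their ranges over fits with libraries left out were -0.65 to 0.27 for C1qa, -0.72 to 0.40 for C1qb, -0.68 to 0.37 for C1qc, -0.79 to 0.16 for Fcgr3, -0.88 to 0.22 for Fcer1g, -0.58 to 0.42 for Tyrobp, -1.48 to 0.20 for Cyba, -1.66 to 0.46 for Cybb, -2.10 to 0.48 for Ncf1 and -1.47 to 0.54 for Ncf4. In del7, 3 genes near 0 turned direction: Trem2 (-0.43 to 0.28), Itgam (-0.78 to 0.042) and Ccr2 (-0.26 to 0.22). With AUG replicate 2 also left out, C1qb was at 0.11, C1qc at 0.058, Fcgr3 at 0.048, Tyrobp at 0.058, Cybb at 0.090, Ncf1 at 0.31 and Ncf4 at 0.29, while C1qa (-0.019), Fcer1g (-0.14) and Cyba (-0.0031) were back below 0. The cause was not tested.

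The replicate numbers of the titles were not taken as pairs, since the labels give them no meaning and not every same-number correlation was over 0.1: 3 of 4 were in del7 and 1 of 4 in AUG. Same-numbered libraries deviated from their group means with correlations across genes of -0.16 to 0.35 between AUG and AUG_WT and of 0.09 to 0.28 between del7 and del7_WT, and a library correlated best with its own number in 3 of 4 cases in del7, a hint of pairing there from the data alone, and in 1 of 4 in AUG. With the replicate block the median of the set was 0.64 in del7 and -0.42 in AUG, the calls stayed at 0 genes in del7 and 4 in AUG, and Ccr2 in del7 was at -0.071.

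Trem2, Itgam and Ms4a7 averaged under 2 CPM in del7_WT, and few reads limit their precision; the count of Itgam is uncertain for its overlap with Gm49368 as well.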
